A study of Homo sapiens with 6 samples.

Results

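The forkhead genes are transcription factor genes that share the winged-helix DNA-binding domain and are named FOX with a letter for the class and a number for the gene. They were taken here as every probe whose target name begins with FOX, a letter from A to S and a digit, leaving out FOXM1 and the FOXRED genes, which gave 39 of the 17977 named genes and 55 of the 48701 probes on the array. Expression was measured on Illumina bead arrays in HEK293 cells, an established line from human embryonic kidney, 48 hours after Lipofectamine transfection. The SNRK group received SNRK-pEGFPN3, which encodes the kinase SNRK, of the family of AMP-activated protein kinase, joined to green fluorescent protein. The GFP group received pEGFPN3, which encodes only the fluorescent protein. The groups had 3 arrays each, called SNRK 1 to 3 and GFP 1 to 3. The labels do not say whether each array had its own culture. The p-values therefore reflect how far these 6 arrays spread, possibly for technical reasons, and the share of cells that took up a plasmid is not given in the sources used here.

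Forkhead factors bind closely related DNA motifs through a domain that resembles a linker histone, and some of them, the FOXA factors above all, can open closed chromatin. FOXO factors are held in the cytoplasm when the kinase AKT phosphorylates them downstream of insulin and growth factor signals, and in the nucleus they switch on genes of cell cycle arrest, stress resistance and fasting metabolism. Many other classes act in the embryo, where in the mouse FOXD1 marks the stromal cells of the developing kidney, and others such as FOXK, FOXJ2 and FOXN2 are expressed widely.

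At a detection p under 0.01, 15732 to 16190 probes were detected on the SNRK arrays and 15133 to 15685 on the GFP arrays. The SNRK probe read 485, 460 and 458 on the SNRK arrays, against 350, 382 and 372 on the GFP arrays (log2 change 0.44 ± 0.09 SE, limma adjusted p = 0.0219). That call was lost without SNRK 1, GFP 1 or GFP 2, and with the replicate number as a block, at a highest limma adjusted p of 0.0915. It is not known here whether that probe can read the RNA made from the plasmid. Of 9 genes known from HEK293 cells, 7 were detected on all 6 arrays, among them INA, KRT8, KRT18, NEFL, NEFM and VIM. PAX2 and LHX1 were detected on fewer arrays. Of 21 markers on the array of blood, liver, fibroblasts, endothelium, muscle and mature nephron, only ALB and PECAM1 were detected on all 6 arrays. Their part in the results below was not tested.

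Of the 55 forkhead probes, 23 were detected on all 6 arrays, 8 on some and 24 on none. A probe was tested if all 3 arrays of the SNRK group, or all 3 of the GFP group, detected it. This kept 28 probes of 25 genes, and 27 probes were not tested. Classes FOXD, FOXF, FOXO, FOXP and FOXQ had every gene on the array measured by at least 1 probe, and so did FOXA. FOXD was the class with most genes, 6 of them measured by 7 of 8 probes. The FOXA class was measured at FOXA1, FOXA2 and FOXA3, the pioneer factors of endoderm and liver, although FOXA2 passed at 1 of 3 probes. The classes FOXE, FOXH, FOXI, FOXK, FOXL and FOXR had no tested probe.

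**Figure D1:**
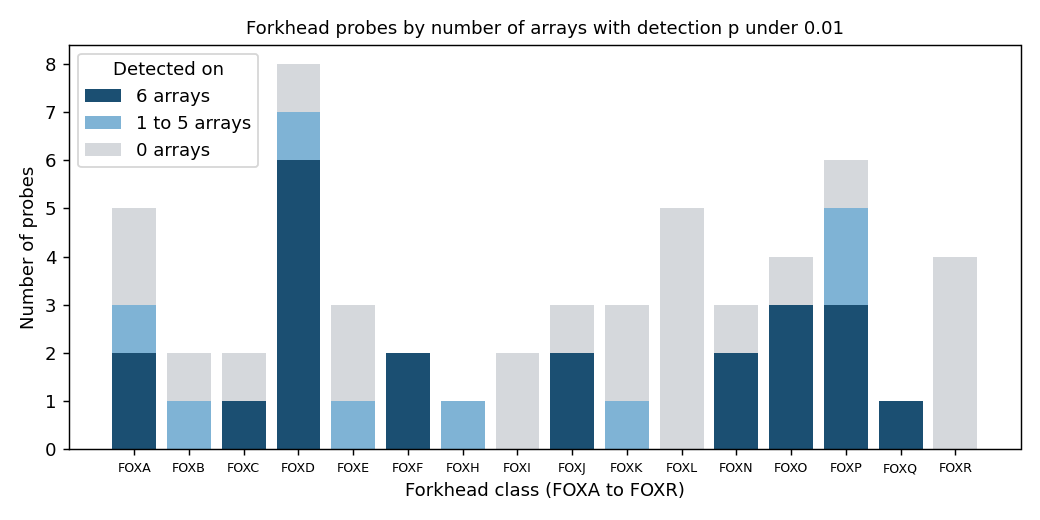
Number of forkhead probes (vertical axis, 54 of the 55) in each class drawn, from FOXA to FOXR (horizontal axis), split by the number of the 6 arrays on which the probe had a detection p under 0.01. FOXD has 8 probes and the most detected ones, and all 5 FOXL probes were detected on 0 arrays.

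The 11 genes with no probe detected on any array were FOXB2, FOXC2, FOXE3, FOXI1, FOXJ1, FOXK2, FOXL1, FOXL2, FOXN1, FOXR1 and FOXR2. Among them FOXJ1 drives the genes of motile cilia, FOXL2 is a factor of ovarian granulosa cells and FOXN1 of the thymus epithelium. Over all 24 probes detected on no array, single readings lay between 70.6 and 109 intensity units, where the median of a whole array was 93.8 to 102. FOXE1, a thyroid factor, was detected on 0 SNRK arrays and 1 GFP array. FOXH1, a SMAD partner in nodal signalling, was detected on 1 SNRK array and 1 GFP array, and so was FOXK1 at 1 of its 2 probes. A probe below detection gives only a bound on its target, and 1 failing probe cannot be told from a gene that is not expressed.

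In SNRK cells 1 of the 28 tested probes rose and 6 fell. FOXB1 rose, both detected probes of FOXD4L4 fell, and FOXA3, FOXD1, FOXJ2 and FOXP1 fell, the last at 1 of its 2 tested probes. A probe rose or fell here if its limma p, adjusted by the Benjamini-Hochberg method over all 14964 tested probes, was under 0.05. The 7 calls are 25% of the tested forkhead probes, where 12.9% of all tested probes were called. The share that fell was 21.4%, against 6.06% of all tested probes, and the share that rose was 3.57%, against 6.88%. Of the 28 probes, 5 had passed the detection filter through 1 group only (FOXB1 and FOXP4 through SNRK, FOXA3, FOXP3 and a FOXD4L4 probe through GFP), so they had to differ in detection. Among the 23 forkhead probes detected on all 6 arrays, refitted with only such probes, 0 rose and 4 fell (17.4%), where 13.6% of such probes were called and 6.45% fell (limma adjusted p under 0.05). In a bulk RNA sample, fewer cells that express a gene and less RNA per cell cannot be told apart.

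The count of 7 calls rested on several arrays, as did the count over all 14964 tested probes, which was 1937. The forkhead count was 3 without GFP 1, 3 without GFP 2 and 4 without SNRK 1. Over all tested probes these fits called 339, 298 and 409. It was 5 without SNRK 2, 8 without SNRK 3 and 8 without GFP 3, where 1112, 2683 and 1857 of all tested probes were called. With arrays scaled by their median, 2 forkhead probes were higher and 6 lower, beside 1322 higher and 803 lower of all tested probes. FOXB1 and both FOXD4L4 probes were called in each of these fits. The median log2 change of the 28 probes was -0.07, beside 0.00369 over all tested probes. In 13 of 28 (46.4%) the normalized values of the SNRK and GFP arrays did not overlap, nor did they in 36.4% of all tested probes. At an unadjusted p under 0.05 the count was 10 of 28, where 31.1% of all tested probes had one.

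**Figure D2:**
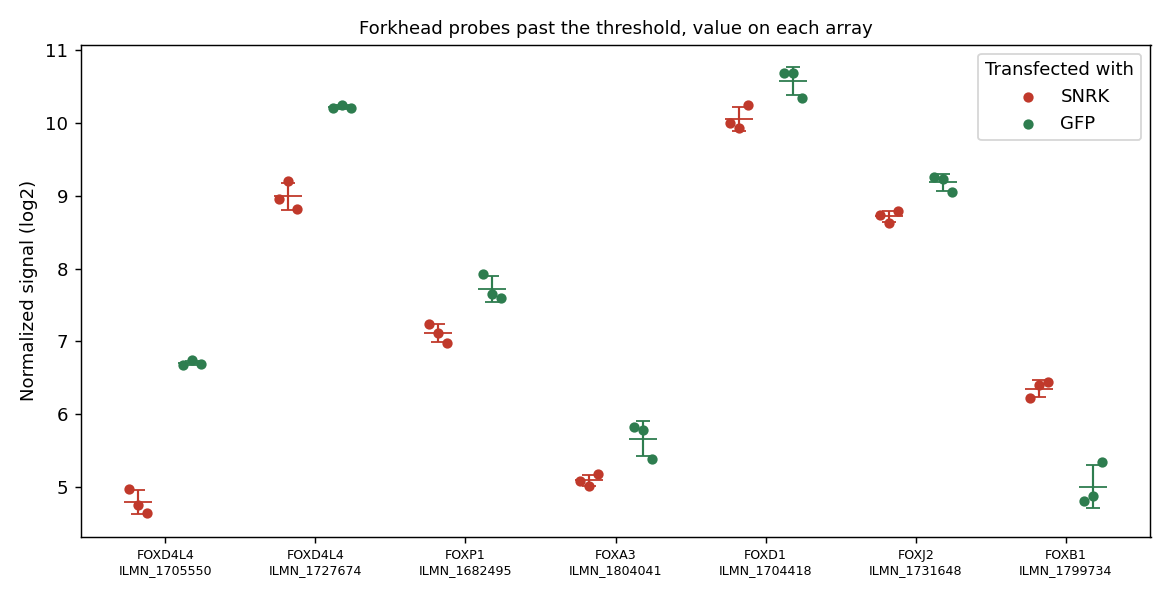
Normalized signal on the log2 scale (vertical axis) of the 7 called forkhead probes (horizontal axis) on each of the 3 SNRK arrays and 3 GFP arrays. Points are arrays, long ticks are group means and bars are ± SD. The 2 FOXD4L4 probes are lower on every SNRK array than on any GFP array and FOXB1 is higher.

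FOXD4L4 belongs to a set of near-identical copies of FOXD4 that lie on human chromosomes 2 and 9, and its role is not described here. Its brighter probe, ILMN_1727674, read 569, 654 and 523 on SNRK 1, 2 and 3, against 1311, 1340 and 1195 on GFP 1, 2 and 3. All SNRK readings lay below all GFP readings. On the normalized log2 scale the level was 8.99 ± 0.19 in SNRK cells and 10.22 ± 0.02 in GFP cells (SD, n = 3 each), a fall by 1.23 (SE 0.11, 2.34-fold lower, limma adjusted p = 0.000714). This is the 49th lowest change of all 14964 tested probes. The call held in all 17 other settings, where the log2 change lay between -1.33 and -0.99.

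The dimmer FOXD4L4 probe, ILMN_1705550, read 109, 104 and 94.1 on the SNRK arrays, against 178, 178 and 170 on the GFP arrays. It was detected on all 3 GFP arrays and on no SNRK array, so that only a bound can be given for SNRK cells. Its signal was at least 2.85-fold lower there, the bound being taken against the lowest detected signal of each SNRK array. The bound itself was not tested. The measured log2 means were 4.79 ± 0.17 in SNRK cells and 6.70 ± 0.03 in GFP cells (SD, n = 3 each). The limma adjusted p of 3.78e-05 belongs to the difference of these means, of which the SNRK mean rests on signal that was not detected. Both FOXD4L4 probes were called lower, each without overlap between groups. The dimmer one passed the filter only through the GFP group, where it was higher, so it adds no separate support to the brighter one. The remaining probe, ILMN_1698938, was detected on no array, with readings of 80.2 to 87.5 on SNRK arrays and 79.4 to 88.1 on GFP arrays. The size of the fall at the dimmer probe depended on how background was handled, with a log2 change of -0.75 without background correction and -0.43 in the authors' normalized values, and the bound holds only with background correction.

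Which copy each of these probes reads is not known here, because probe sequences were not used. RefSeq now gives FOXD4L4 as a gene of its own and also as an older name of FOXD4L3. The windows around the annotated starts of both genes (250 bases before to 50 after, RefSeq, GRCh38.p14, both on the + strand) are printed to show how alike the copies are. FOXD4L4 is at chr9:65736896-65737195 and FOXD4L3 at chr9:68302617-68302916, and capitals mark the longest stretch that both share letter for letter, 215 bases. The stretch sits at different distances from the annotated starts.
FOXD4L4: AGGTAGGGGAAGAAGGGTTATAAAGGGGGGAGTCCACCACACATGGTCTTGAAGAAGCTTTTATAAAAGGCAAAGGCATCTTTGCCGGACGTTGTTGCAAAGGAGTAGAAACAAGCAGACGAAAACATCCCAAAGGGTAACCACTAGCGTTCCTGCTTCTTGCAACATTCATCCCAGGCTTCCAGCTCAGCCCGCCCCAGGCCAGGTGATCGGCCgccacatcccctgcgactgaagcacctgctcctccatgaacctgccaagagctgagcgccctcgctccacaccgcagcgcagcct
FOXD4L3: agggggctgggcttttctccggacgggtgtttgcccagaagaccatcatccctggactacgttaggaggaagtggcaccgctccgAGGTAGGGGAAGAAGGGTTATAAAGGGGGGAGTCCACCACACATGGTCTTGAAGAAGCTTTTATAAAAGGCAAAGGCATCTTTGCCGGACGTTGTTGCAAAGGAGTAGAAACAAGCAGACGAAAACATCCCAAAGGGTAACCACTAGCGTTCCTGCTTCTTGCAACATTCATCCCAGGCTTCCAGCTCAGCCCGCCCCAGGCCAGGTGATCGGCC

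Other windows of the set shared shorter stretches. The longest shared stretch was 87 bases between FOXD4L3 and FOXD4L6, 70 between FOXD4 and FOXD4L6, 62 between FOXD4 and FOXD4L3 and 58 between FOXD4L1 and FOXD4L5. It was 10 bases or fewer in the other pairs. Each window is fixed to its own annotated start, and the 215-base stretch runs to an edge of both windows. A short stretch can therefore mean that 2 windows cover different parts, and does not show that the copies differ.

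The probes named for the other copies did not pass. FOXD4 read 133, 120 and 118 on SNRK 1, 2 and 3, against 125, 119 and 119 on GFP 1, 2 and 3. Its log2 change was -0.07, with a 95% confidence interval of -0.33 to 0.18 (limma adjusted p = 0.692). FOXD4L1 read 208, 197 and 207 on the SNRK arrays, against 212, 207 and 207 on the GFP arrays. Its log2 change was -0.12, with an interval of -0.34 to 0.10 (limma adjusted p = 0.422). For both, SNRK and GFP arrays overlapped. Neither interval reached the change of the brighter FOXD4L4 probe, whose own interval was -1.47 to -0.99, but the difference between these probes was not tested.

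FOXB1, needed in the mouse for parts of the hypothalamus and midbrain to form, was the 1 probe that rose among the 28 tested ones. That count leaves out FOXM1 by rule, so it does not say that no other forkhead gene rose. Its probe read 155, 168 and 158 on SNRK 1, 2 and 3, against 103, 99.1 and 111 on GFP 1, 2 and 3. Every SNRK array stood above every GFP array. It was detected on all 3 SNRK arrays and on 1 GFP array, GFP 3. The log2 level was 6.35 ± 0.11 in SNRK cells and 5.0 ± 0.30 in GFP cells (SD, n = 3 each), a change of 1.35 ± 0.15 SE (2.54-fold, limma adjusted p = 0.00249). On GFP 1 and GFP 2 the probe was not above background, so the size of the change rests on signal that was not detected there. The direction and the call held in all 16 other settings that measured it, but the size did not, at 0.50 without background correction and 0.28 in the authors' normalized values. The probe passed the filter only through the SNRK group, where it was higher, and with detection on all 6 arrays it was not tested. FOXB2, the other gene of the class, was detected on no array, with readings of 83.1 to 98.6 on SNRK arrays and 79.2 to 102 on GFP arrays.

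The window around the start of FOXB1 (chr15:60004061-60004360, + strand, RefSeq, GRCh38.p14) is shown because FOXB1 alone among the forkhead genes with a window holds a forkhead-type motif there. The motifs searched were GTAAACA and GTAAATA on both strands, which do not overlap each other. Capitals mark the single match, GTAAATA, which begins 190 bases before the annotated start.
FOXB1: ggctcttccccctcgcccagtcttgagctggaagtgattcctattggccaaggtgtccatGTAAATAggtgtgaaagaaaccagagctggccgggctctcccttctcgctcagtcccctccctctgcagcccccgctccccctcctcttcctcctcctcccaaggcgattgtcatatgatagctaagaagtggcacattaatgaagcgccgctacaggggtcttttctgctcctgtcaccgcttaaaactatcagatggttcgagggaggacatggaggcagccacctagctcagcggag

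Of the 39 forkhead genes, 30 had such a window, and 1 of them (3.33%) held either motif. Over all 27305 genes with a window, 6.05% held either motif, 3.41% GTAAACA and 2.77% GTAAATA. The match is a string of letters and says nothing of binding.

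FOXD1, the factor of embryonic kidney stroma in the mouse, read 1069, 1019 and 1295 on SNRK 1, 2 and 3, against 1795, 1813 and 1320 on GFP 1, 2 and 3. SNRK 3 and GFP 3 nearly met, with the other arrays far apart. That nearness is not particular to FOXD1. Over all tested probes SNRK 3 correlated more with GFP 3 (0.9906) than with SNRK 2 (0.9898). The log2 level was 10.06 ± 0.17 in SNRK cells and 10.58 ± 0.20 in GFP cells (SD, n = 3 each), a fall by 0.52 (SE 0.13, limma adjusted p = 0.0352). The call was lost without SNRK 1 (adjusted p = 0.112), SNRK 2 (0.0899), GFP 1 (0.133) or GFP 2 (0.130), and without the detection filter (0.0960). FOXD2 read 562 to 658 on the SNRK arrays and 576 to 587 on the GFP arrays, with a log2 change of 0.10 that did not pass (limma adjusted p = 0.528). FOXD3, a factor of the neural crest, read 131 to 141 on the SNRK arrays and 116 to 124 on the GFP arrays, with 0.24 (0.260).

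FOXJ2, a widely expressed activator, read 497, 474 and 514 on SNRK 1, 2 and 3, against 716, 701 and 584 on GFP 1, 2 and 3. All SNRK arrays lay below all GFP arrays, with GFP 3 the nearest. The log2 change was a fall by 0.47 (SE 0.09, limma adjusted p = 0.0190), and the call was lost without SNRK 1 (adjusted p = 0.0671), GFP 1 (0.0870) or GFP 2 (0.0894). FOXJ3, its closest relative on the array, read 754, 750 and 738 on the SNRK arrays, against 867, 836 and 775 on the GFP arrays. Its groups did not overlap either, but the log2 change of -0.12 did not pass (95% confidence interval -0.29 to 0.06, limma adjusted p = 0.335).

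FOXP1, a repressor with roles in B cells, heart and brain, fell at its brighter probe and did not pass at its dimmer one. The brighter probe, ILMN_1682495, read 230, 225 and 197 on SNRK 1, 2 and 3, against 324, 278 and 259 on GFP 1, 2 and 3. The groups did not overlap, and the log2 change was a fall by 0.61 (SE 0.11, limma adjusted p = 0.0168). That call was lost without GFP 1 (adjusted p = 0.0659) or GFP 2 (0.0639), and the log2 change was -0.40 without background correction and -0.28 in the authors' normalized values. The dimmer probe, ILMN_1768248, read 132, 150 and 117 on the SNRK arrays, against 125, 116 and 112 on the GFP arrays. Its groups overlapped, and its log2 change was 0.25 (95% confidence interval -0.08 to 0.58, limma adjusted p = 0.266). Its last probe was detected on no array. The FOXP1 change is therefore that of 1 probe, and the part of the transcript it reads is not known here.

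The other FOXP genes did not pass. FOXP4, a partner of FOXP1 and FOXP2, read 126, 136 and 113 on SNRK 1, 2 and 3, against 109, 101 and 110 on GFP 1, 2 and 3. It was detected on all 3 SNRK arrays and 1 GFP array and had a log2 change of 0.45 (limma adjusted p = 0.0643). It passed without SNRK 3 (adjusted p = 0.0365) or GFP 3 (0.0370), and with median scaling (0.0429) or array weights (0.0107). FOXP2, known for its part in speech, read 163 to 217 on the SNRK arrays and 168 to 187 on the GFP arrays, with 0.08 (limma adjusted p = 0.761). FOXP3, the factor of regulatory T cells, read 126, 116 and 108 on the SNRK arrays, against 115, 123 and 114 on the GFP arrays, close to background, with a log2 change of -0.19 (adjusted p = 0.406).

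FOXA3 read 112, 112 and 109 on SNRK 1, 2 and 3, against 133, 126 and 112 on GFP 1, 2 and 3, and was detected on 1 SNRK array and all 3 GFP arrays. Before normalization SNRK 1 and GFP 3 overlapped, and after it the groups did not. The log2 change was a fall by 0.57 (SE 0.13, limma adjusted p = 0.0263), at a level near background. The call was lost without background correction (log2 change -0.19, adjusted p = 0.0623), in the authors' normalized values (-0.11, 0.104) and without the detection filter (0.0739). It was also lost without SNRK 1 (adjusted p = 0.0888), SNRK 2 (0.0657), GFP 1 (0.105) or GFP 2 (0.106). FOXA1 read 1677, 1729 and 1804 on the SNRK arrays, against 1870, 1929 and 1595 on the GFP arrays, with overlapping groups. Its log2 change was 0.005 (95% confidence interval -0.18 to 0.19, limma adjusted p = 0.973). FOXA2 read 316 to 378 on the SNRK arrays and 304 to 314 on the GFP arrays, which did not overlap, and had 0.19 (interval -0.06 to 0.44, adjusted p = 0.266).

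**Figure D3:**
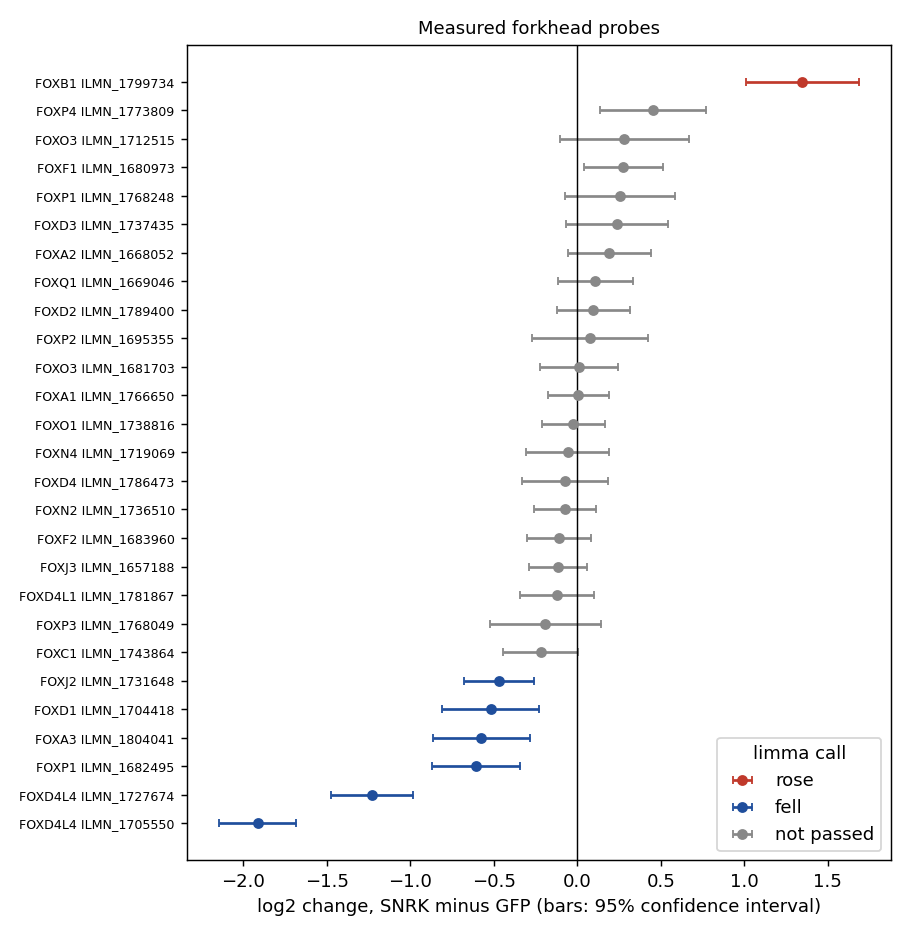
Log2 change, SNRK minus GFP (horizontal axis), of 27 of the 28 tested forkhead probes (vertical axis, highest change on top). Points are limma estimates from 3 arrays of each group and bars are 95% confidence intervals. FOXB1 stands apart at 1.35, the 2 FOXD4L4 probes at -1.23 and -1.91, the lower of which no SNRK array detected, and the 3 FOXO probes cross 0.

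The FOXO genes, the class that AKT controls, did not pass. FOXO1, listed as FOXO1A, read 301, 322 and 300.5 on SNRK 1, 2 and 3, against 309, 332 and 295 on GFP 1, 2 and 3. The groups overlapped, and the log2 change was -0.02 (95% confidence interval -0.21 to 0.16, limma adjusted p = 0.868). FOXO3, listed as FOXO3A, read 3905, 4266 and 3534 on the SNRK arrays, against 4265, 3964 and 3612 on the GFP arrays at its brightest probe. Its log2 change was 0.01 (interval -0.22 to 0.24, adjusted p = 0.958). A dimmer FOXO3 probe read 127 to 156 on the SNRK arrays and 113 to 128 on the GFP arrays and had 0.28 (interval -0.10 to 0.67, adjusted p = 0.286). A further probe was detected on no array. FOXO3 has a near-identical copy, FOXO3B, and which of them these probes read is not known here. FOXO4 stands on the array under its old name MLLT7 and so outside the naming rule. It read 734, 615 and 690.5 on the SNRK arrays, against 733, 743 and 696 on the GFP arrays, with a log2 change of -0.07 (limma adjusted p = 0.683).

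FOXN3 and FOXS1 are outside the rule for the same reason, under CHES1 and FKHL18. FOXN3, a repressor, fell by 0.33 at 1 probe, which read 128, 127 and 115 on the SNRK arrays, against 137, 125 and 126 on the GFP arrays (limma adjusted p = 0.0450), and FOXS1 was detected on no array. The FOXN3 values of the groups overlapped before normalization and not after it, and its other probe was detected on no array. The FOXN3 call held in 3 of 17 other settings and in none that left out an array. Inside the rule, FOXN2 read 961 to 1020 on the SNRK arrays and 990 to 1158 on the GFP arrays, with a log2 change of -0.07 (limma adjusted p = 0.573). FOXN4, a factor of retinal progenitors, read 148 to 155 on the SNRK arrays and 134 to 158 on the GFP arrays, with -0.06 (0.754).

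FOXC1, FOXF1, FOXF2 and FOXQ1 also stayed short of the threshold. FOXC1, a factor of the anterior eye and of kidney development, read 5738, 6200.2 and 6418 on SNRK 1, 2 and 3, against 7723, 7910.0 and 6137 on GFP 1, 2 and 3. Before normalization GFP 3 lay inside the SNRK range, and after it the groups did not overlap. The log2 change was -0.22 (95% confidence interval -0.44 to 0.01, limma adjusted p = 0.169), and it passed with array weights (adjusted p = 0.0269). FOXF2, which RefSeq places next to FOXC1 among protein-coding genes, read 2878 to 3183 on the SNRK arrays and 2948 to 3613 on the GFP arrays and had -0.11 (adjusted p = 0.409). FOXF1, a mesenchymal factor of lung and gut, read 269, 248 and 264 on the SNRK arrays, against 220, 224 and 229 on the GFP arrays. Its groups did not overlap, and the log2 change of 0.28 passed with array weights (adjusted p = 0.0183) but not otherwise (0.111). FOXQ1 read 278 to 297 on the SNRK arrays and 248 to 291 on the GFP arrays and had 0.11 (adjusted p = 0.492).

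**Figure D4:**
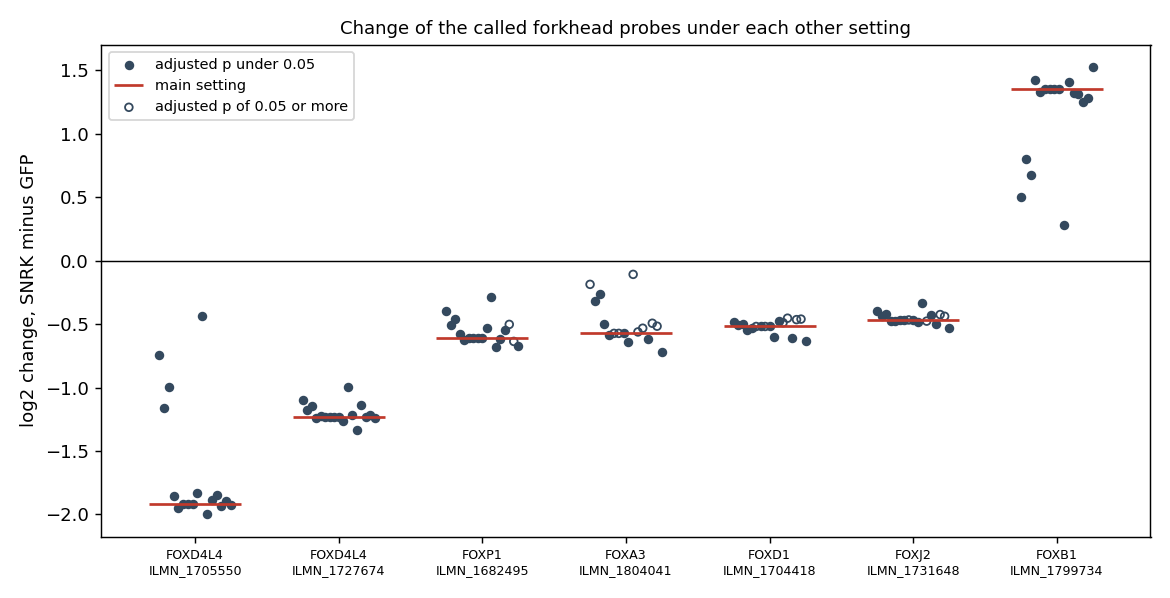
Log2 change, SNRK minus GFP (vertical axis), of each called forkhead probe (horizontal axis) under every other processing setting that measured it. Filled points had an adjusted p under 0.05 and open points had not, and the line is the value as reported. FOXB1 and the 2 FOXD4L4 probes have filled points only, and the size of FOXB1 ranges from 0.28 to 1.52.

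Genes that act on FOXO factors, that FOXO factors regulate, or that bind forkhead proteins were counted with 1 probe per gene, the brightest tested one. Of all 10425 genes so counted, 13.2% were called, 7.41% higher and 5.75% lower. Of 44 measured regulators of FOXO factors, 4 rose and 0 fell (limma adjusted p under 0.05), a called share of 9.09%. At an unadjusted p under 0.05, 10 of the 44 were higher and 4 lower, where 31.1% of all tested probes had such a p in either direction. The median log2 change was 0.01, beside -0.00224 over all genes. AKT1 and AKT2, genes of the kinases that phosphorylate FOXO proteins, rose. AKT1 read 408, 410 and 355 on SNRK 1, 2 and 3, against 312, 313 and 288 on GFP 1, 2 and 3 (log2 change 0.47 ± 0.09 SE, limma adjusted p = 0.0176). AKT2 read 335, 472 and 254 on the SNRK arrays, against 219, 212 and 213 on the GFP arrays (0.90 ± 0.23 SE, adjusted p = 0.0390). Neither overlapped between groups, and AKT2 varied most among the SNRK arrays. IRS2, an adaptor of the insulin receptor that is also a FOXO target, read 726, 808 and 731 on the SNRK arrays, against 495, 540.1 and 565 on the GFP arrays (0.60 ± 0.11 SE, adjusted p = 0.0142). PHLPP1, a phosphatase of AKT, rose by 0.38 (adjusted p = 0.0436). DYRK1A, a kinase of FOXO1, had -0.27 at its brightest probe (limma adjusted p = 0.0607) and 0.15 at a dimmer one (0.670). No regulator was called without GFP 1, GFP 2 or SNRK 1, where 7, 12 and 10 had an unadjusted p under 0.05, and 7 were called without SNRK 3. Of all 14964 tested probes, 339, 298 and 409 were called without GFP 1, GFP 2 and SNRK 1, and 2683 without SNRK 3. AKT2 and PHLPP1 were also not called without GFP 3, nor PHLPP1 without SNRK 2.

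Of 27 measured FOXO target genes, 2 rose and 1 fell, a called share of 11.1%, where 13.2% of all genes so counted were called. The median log2 change was 0.09, beside -0.00224 over all genes. The list was not split by whether FOXO factors raise or lower a gene, so its counts and median do not give the direction of FOXO activity. Beside IRS2, the pocket protein gene RBL2 rose by 0.54 (limma adjusted p = 0.0233), while BBC3, which promotes apoptosis, fell by 0.38 (0.0333). CCND2 (log2 change 0.41, adjusted p = 0.0554), SOD2 (0.27, 0.0842) and CAT (0.23, 0.102), a cyclin gene and antioxidant enzyme genes, did not pass. None was called in limma without GFP 1, GFP 2 or SNRK 1, where 4, 6 and 6 had an unadjusted p under 0.05, nor was BBC3 without SNRK 3 or GFP 3. Without GFP 1, GFP 2 and SNRK 1, only 339, 298 and 409 of all 14964 tested probes were called. FBXO32, a ubiquitin ligase gene of muscle wasting, had a log2 change of -0.04 at its brightest probe, which was called in 0 of 17 other settings (limma adjusted p = 0.840). It rose by 0.63 at a dimmer probe (adjusted p = 0.0268), which was named after its value was seen and was not called without SNRK 1, SNRK 2, GFP 1 or GFP 2.

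Of 23 measured partners of forkhead proteins, 6 rose and 1 fell, a called share of 30.4%. Of all genes so counted 13.2% were called, 7.41% higher and 5.75% lower. The median log2 change of the partners was -0.03, beside -0.00224 over all genes. SIN3B, a corepressor scaffold that binds FOXK proteins, read 310, 302 and 316 on SNRK 1, 2 and 3, against 213, 212 and 220 on GFP 1, 2 and 3 (log2 change 0.71 ± 0.09 SE, limma adjusted p = 0.00473). MTA1 and GATAD2B, subunits of the NuRD chromatin complex, rose by 0.85 and 0.95 (limma adjusted p = 0.00774 and 0.0230). The corepressor genes TLE3 and CTBP2 rose by 0.61 and 0.37 (adjusted p = 0.0314 and 0.0330), CTBP2 being named after its value was seen. Their relatives CTBP1, TLE1 and TLE4 had -0.19, -0.07 and 0.07 at their brightest tested probes and did not pass. A dimmer CTBP1 probe rose by 0.78 (limma adjusted p = 0.0411). HCFC1, the host cell factor gene, fell by 0.45 (adjusted p = 0.0167). The count of 7 was 2 without GFP 1, 2 without GFP 2 and 2 without SNRK 1, where 339, 298 and 409 of all 14964 tested probes were called. The calls of SIN3B and MTA1 held in all 17 other settings, at log2 changes of 0.34 to 0.76 and 0.78 to 0.98. TLE3 and CTBP2 were also not called without SNRK 2, nor CTBP2 without GFP 3.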

How the data were processed

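Total RNA of 3 SNRK and 3 GFP samples of transfected HEK293 cells was hybridised to Illumina bead arrays as biotin-labelled cRNA, per the labels' protocols. Per the file headers, the authors deposited linear intensity values and detection p-values of 48701 probes on every array. A second deposited table holds normalized intensity as whole numbers, with a median of 170 on each array and a minimum of 138 to 144. Its transform is not given in the sources used here, and it was used on a log2 scale as an alternative. The submitters' processing notes name lumi, with no version. Scanner background handling is not given in the sources used here.

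Intensities were background corrected with neqc (limma 3.58.1, R 4.3.3, offset 16, negative controls inferred from detection p-values), quantile normalized and put on the log2 scale. Probes detected (p under 0.01) on all 3 arrays of 1 group were fitted with lmFit and eBayes, with group as the only term, and p-values were adjusted by Benjamini-Hochberg over 14964 probes in limma. The fit was tested on simulated data. Names follow RefSeq GRCh38.p14, used for gene coordinates only where a promoter window is printed, and 5 forkhead probes carried an older symbol. By rule, every tested forkhead probe is named, and up to 6 genes by smallest p from each of 3 lists, except some genes that are counted but not reported here. Members, lists and rules were chosen with earlier results of these data known. The number of arrays limits precision. Alternatives changed background correction, normalization, filter, replicate block, moderation and array weights, used the authors' values or left out 1 array. Each array left out was followed by normalization of the other 5.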

Additional observations from a re-analysis of the deposited data

How the results depend on the processing

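Of 471 refits of single forkhead probes, 445 stayed on their side of the threshold, 20 lost a call, 6 gained one and 0 reversed a call. The count of 7 called forkhead probes was 4 with detection on all 6 arrays, where FOXB1, FOXA3 and the dimmer FOXD4L4 probe are not tested, 4 with a further limit of 1.5-fold, and 3 to 8 with 1 array left out. Over all 14964 tested probes 1937 were called, 669 without the detection filter (48701 tested), 4266 with array weights, and 298 to 2683 with 1 array left out. The all-probe count was 2568 without background correction, 2504 with background offset 50 and 2596 with the maximum likelihood background. It was 2729 with trend and robust moderation and 2225 in the authors' normalized values. The list counts below shift beside these all-probe counts and are not results about the lists alone. The FOXO targets called numbered 3, and 5 without background correction, 5 with the maximum likelihood background (an alternative chosen after seeing the data), 1 without the detection filter, 6 with trend and robust moderation, 8 with array weights, 7 in the authors' normalized values and 0 to 3 with 1 array left out. For FOXO regulators the 4 became 9 without background correction, 7 with background offset 50, 9 with maximum likelihood background, 2 without the detection filter, 9 with trend and robust moderation, 12 with array weights and 0 to 7 with 1 array left out. In the authors' normalized values 2 of these were higher and 3 lower. For forkhead partners the 7 became 11 with background offset 50, 11 with maximum likelihood background, 4 without the detection filter, 11 with array weights and 2 to 9 with 1 array left out. The cause of these shifts was not tested.

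With the replicate number as a block, 731 probes were called, and 4 forkhead probes, 1 FOXO target, 1 FOXO regulator and 4 forkhead partners. FOXA3 (adjusted p = 0.0645), FOXD1 (0.0914) and FOXJ2 (0.0619) were then not called in limma. Same-numbered arrays did not deviate together from their group means (correlations of -0.0593, -0.128 and -0.297 for numbers 1, 2 and 3), so the numbers are not taken as pairs. Between differently numbered arrays the correlations ran from -0.21 (SNRK 2 with GFP 1) to 0.293 (SNRK 2 with GFP 3). Deviations within a group are tied to each other, so these values cannot settle whether arrays were paired. Probes near background, such as FOXB1, FOXA3, FOXP3 and FOXP4, have log2 changes whose size follows the background correction.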
